A study of Mus musculus with 18 samples.

Results

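The genes examined encode 9 proteins of the ciliary transition zone, named Tmem231, Tmem67, Tctn1, Tctn2, B9d1, B9d2, Mks1, Cc2d2a and Rpgrip1l. They were chosen by name, with earlier results of these data known. Every probe annotated to one of these symbols was taken from the array, which gave 22 probes among 45281. A probe was kept when its detection p, the authors' measure of its signal against the negative control beads of the same array, was below 0.01 on at least 2 arrays. The filter kept 13 of the 22 probes and at least 1 probe for all 9 genes, out of 12002 genes kept on the whole array. Of the 9 probes that were not kept, 7 were not detected on any array, so their genes are described only from the remaining probes.

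All mice carried the Atoh1/nGFP transgene on a C57BL/6 background and were at postnatal day 1 (P1). The transgene marks hair cells with a nuclear green fluorescent protein under an Atoh1 enhancer. Cells of the vestibular system and of the cochlea were sorted separately by the fluorescent protein and the epithelial surface protein CD326. Hair cells (HCs) were positive for both, epithelial non-hair cells (ENHCs, written ENSCs in the labels) for CD326 only, and non-epithelial cells (NECs) for neither. Each of the 6 groups was measured on 3 arrays, for 18 arrays in all, with RNA from several mice combined for each array and amplified before labelling. In such sorted bulk samples, fewer cells of a type and less RNA per cell cannot be told apart.

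The transition zone lies at the base of a cilium, between the basal body and the axoneme, and acts as a gate for proteins that enter or leave the ciliary compartment. Most of the 9 proteins belong to the MKS module, in which transmembrane proteins (Tmem231, Tmem67), the tectonics (Tctn1, Tctn2), the B9-domain proteins (B9d1, B9d2, Mks1) and the C2-domain protein Cc2d2a are assembled together, while Rpgrip1l is a scaffold that links this module to the basal body. Hair cells bear a single true cilium, the kinocilium, beside their stereocilia, and cochlear hair cells lose it as they mature while vestibular hair cells keep it. Supporting cells and mesenchymal cells carry primary cilia, which also have a transition zone.

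Between 16668 and 19564 probes were detected per array, and each of the 18 arrays correlated best with another array of its own group. All 10 hair cell markers were detected on every HC array, while 7 of the 10, Atoh1 among them, were not detected on any vestibular ENHC array. The 8 markers of epithelial non-hair cells were detected on every ENHC array, and the 8 markers of mesenchyme on every NEC array, but 6 of these 8 were also detected on every vestibular ENHC array and 4 on every cochlear ENHC array. In vestibular HCs the summed linear signal of the epithelial non-hair cell markers was 3016 to 4478, against 1482 to 2096 in cochlear HCs, 8902 to 10380 in vestibular ENHCs and 7991 to 9523 in cochlear ENHCs. In each organ 7 of these 8 markers were lower in HCs than in ENHCs, but Sox2 was higher. The sums include Sox2, whose mean log2 signal was 10.6 in vestibular HCs and 9.6 in cochlear HCs. With the group means taken off, 17 of the 18 arrays correlated best, among the other groups, with an array of their own replicate number. No source states that same-numbered arrays share mice, so the main fit does not use these numbers. The p-values below measure the spread between these arrays, and a fit with a replicate block is given at the end.

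RFX transcription factors, which the study followed in hair cells, are known to bind X-box sequences in the promoters of cilium genes, so the DNA around the transcription start of the members was read for X-box letters. The windows are RefSeq promoters of mouse build GRCm38.p6, each from 250 bases before to 50 bases after a start, and 8 of the 9 genes matched an entry; Tmem67 did not. Nested sets of letters were searched on both strands, namely an X-box (GTNNCC, then any 3 bases, then GNAAC), the half-site GTTGCC, which can be the left part of that X-box, and the shorter GTTGC, which lies within GTTGCC. The 30 bases below are the ones around the longest of these found nearest the start, with the match in capitals, shown 5′ to 3′ on the strand of the gene.
Tmem231: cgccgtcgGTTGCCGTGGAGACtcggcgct
Tctn1: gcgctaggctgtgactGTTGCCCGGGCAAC
Tctn2: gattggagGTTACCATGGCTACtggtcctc
B9d2: aacctgctGTTGCCCCAGCAACagtcgggg
Mks1: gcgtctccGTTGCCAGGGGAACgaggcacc
B9d1: cgagagcctcctGGCAACagcgcgcggcct
Cc2d2a: tccctgggaactgGTTGCtaagctggtgtt
Rpgrip1l: cctgggcgctataGCAACcggtagctagct
The first 5 hold the X-box on at least 1 strand, B9d1 holds GTTGCC on the opposite strand, and Cc2d2a and Rpgrip1l hold only GTTGC. The X-box was found in 2.17% of all 32851 promoter windows and in 5 of the 8 members. GTTGCC was found in 12.5% of all windows and in 6 members, and GTTGC in 35.2% of all windows and in all 8. These letters were chosen with the windows in view, and a match is a description of the sequence, not evidence of a bound site.

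The genomic places of these stretches are chr8:111933781-111933810 on the minus strand for Tmem231, chr5:122264411-122264440 (minus) for Tctn1, chr5:124598679-124598708 (plus) for Tctn2, chr7:25680788-25680817 (plus) for B9d2 and chr11:87853183-87853212 (plus) for Mks1. They are chr11:61505152-61505181 (plus) for B9d1, chr5:43662355-43662384 (plus) for Cc2d2a and chr8:91313219-91313248 (minus) for Rpgrip1l. Counted from the transcription start that its promoter window is built on, the match began after it in Tmem231, Tctn1, B9d1 and B9d2. In Tctn2, Mks1, Cc2d2a and Rpgrip1l it began before that start. A window's start need not be the end of the gene's annotated span. In Mks1 and Rpgrip1l the match lay inside the span given for the gene below. For the members with the largest positive and the only negative difference between HCs and ENHCs (below), the 250 bases before the window's transcription start are given. Each GTTGC or its reverse complement GCAAC is in capitals. They lie at chr8:111933814-111934063 on the minus strand (Tmem231) and chr5:43662129-43662378 on the plus strand (Cc2d2a).
Tmem231: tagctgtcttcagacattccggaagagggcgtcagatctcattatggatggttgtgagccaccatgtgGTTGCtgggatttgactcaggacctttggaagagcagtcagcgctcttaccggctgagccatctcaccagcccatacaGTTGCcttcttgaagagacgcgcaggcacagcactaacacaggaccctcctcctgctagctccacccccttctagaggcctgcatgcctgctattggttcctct
Cc2d2a: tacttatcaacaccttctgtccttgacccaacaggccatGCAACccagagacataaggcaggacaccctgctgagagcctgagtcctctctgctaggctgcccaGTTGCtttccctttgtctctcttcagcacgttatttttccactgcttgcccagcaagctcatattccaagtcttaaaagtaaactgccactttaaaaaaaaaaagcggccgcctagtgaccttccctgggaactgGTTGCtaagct

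Of the 9 genes, 5 were higher in HCs than in ENHCs over both organs: Tmem231, B9d2, Rpgrip1l, B9d1 and Tmem67, by 1.89-fold to 3.99-fold. Cc2d2a was the only member lower in HCs (log2 difference -0.70 ± 0.13, from -1.41 in the cochlea and 0.00 in the vestibular system). Tctn1, Tctn2 and Mks1 did not pass an adjusted p of 0.05 (limma, Benjamini-Hochberg over all 12002 genes). Over the whole array 22.1% of genes were higher and 24.9% lower in this comparison, so that 55.6% of the members were higher and 11.1% were lower. With no background correction all 6 calls held but the log2 differences were smaller, at 1.28 for Tmem231, 1.57 for B9d2, 0.94 for Rpgrip1l, 0.96 for B9d1, 0.37 for Tmem67 and -0.47 for Cc2d2a. The median log2 difference of the 9 members was 0.92, beside -0.03 over all genes tested. Levels are log2 of the background-corrected, quantile-normalized signal of the brightest kept probe of each gene, and values at or below about 5.10 to 5.52, depending on the array, are at the detection limit. In 4 members (Tmem231, B9d1, B9d2 and Rpgrip1l, 44.4%) all 6 HC arrays lay above all 6 ENHC arrays, and over the whole array the groups did not overlap, in either direction, in 20.5% of genes. Of the 5 members with the X-box letters shown above, Tmem231 and B9d2 were higher in HCs, and of the 3 others with a promoter window, B9d1 and Rpgrip1l were higher and Cc2d2a was lower. In the same comparison 6 of 8 mesenchyme markers were lower in HCs and 1 was higher (Pdgfra). Their summed signals were 671.8 to 740.2 in vestibular HCs, 1011 to 1105 in cochlear HCs, 1606 to 2326 in vestibular ENHCs and 2316 to 2759 in cochlear ENHCs. Of 7 neuron markers 3 were higher in HCs (Nefl, Snap25 and Elavl4) and 1 was lower (Stmn2). Stmn2 and Tubb3 were not detected on any HC array, and Neurod1 was detected on 1 vestibular HC array and on no cochlear one. The part of the cells these markers stand for in the members' differences was not tested.

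**Figure D1:**
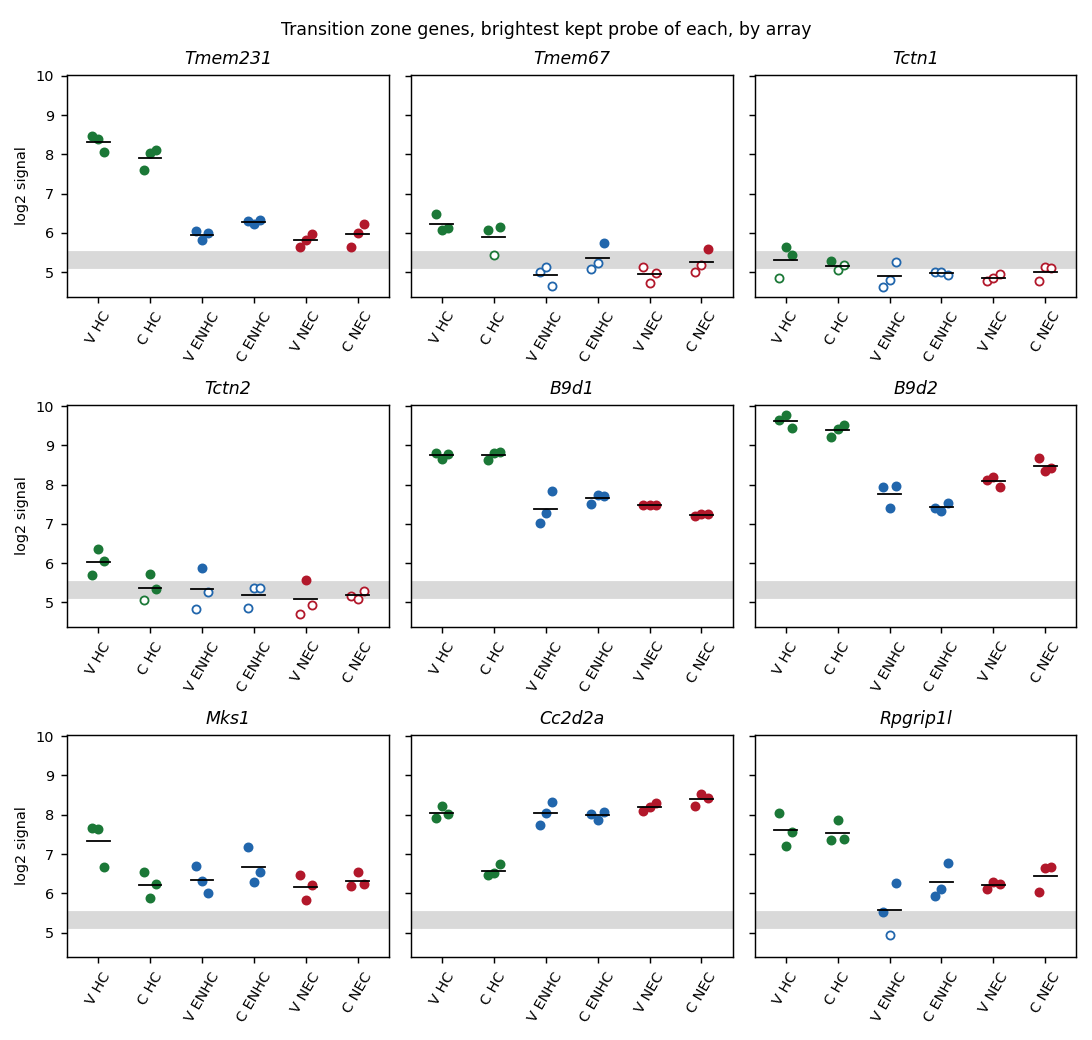
Log2 signal of the brightest kept probe of each of the 9 genes on each of the 18 arrays. The 6 groups run along the horizontal axis (V, vestibular; C, cochlear), a point is an array, filled where the probe was detected at p below 0.01 and open where it was not, a black bar is the group mean, and the grey band is the range of the arrays' detection limits. The HC points of Tmem231, B9d1, B9d2 and Rpgrip1l lie above all other points of the same gene, whereas the cochlear HC points of Cc2d2a, at 6.45 to 6.74, lie below all its other points.

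Tmem231, a transmembrane protein of the MKS module, lies on chromosome 8 (111912007 to 111933813). Its log2 signal was 8.46, 8.39 and 8.07 in vestibular HCs and 7.61, 8.05 and 8.10 in cochlear HCs. It was 6.05, 5.82 and 5.99 in vestibular ENHCs and 6.29, 6.23 and 6.32 in cochlear ENHCs, and 5.64, 5.81 and 5.98 in vestibular NECs and 5.65, 6.00 and 6.22 in cochlear NECs. Every HC array was above every other array, and the probe was detected on all 18 arrays. HCs exceeded ENHCs by 2.00 ± 0.14 (SE; 6 arrays each; adjusted p = 6.01e-10, limma) and NECs by 2.23 ± 0.14 (adjusted p = 6.27e-11). ENHCs and NECs differed by 0.23, with a 95% interval of -0.06 to 0.52 (adjusted p = 0.228). On the second Tmem231 probe the 6 HC arrays were the only ones with a detected signal, so the filter kept it through HC arrays only. HCs were at least 1.84-fold above the ENHC detection limit and at least 1.98-fold above that of NECs on it. Such a bound sets the mean of the HC arrays against the dimmest signals that were still detected.

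B9d2 and B9d1 encode small B9-domain proteins of the MKS module and lie on chromosomes 7 and 11. The B9d2 signal was 9.65, 9.78 and 9.43 in vestibular HCs and 9.20, 9.42 and 9.52 in cochlear HCs, against 7.94, 7.39 and 7.96 in vestibular ENHCs and 7.40, 7.33 and 7.53 in cochlear ENHCs. In NECs it was 8.11, 8.20 and 7.94 (vestibular) and 8.66, 8.34 and 8.43 (cochlear). The HC arrays were the highest and did not overlap with the rest, and the cochlear NEC arrays lay above all 6 ENHC arrays. HCs exceeded ENHCs by 1.91 ± 0.13 (adjusted p = 7.86e-10) and NECs by 1.22 ± 0.13 (adjusted p = 2.26e-07). B9d2 was also the only member that differed between ENHCs and NECs, where it was lower in ENHCs (log2 difference -0.69 ± 0.13, adjusted p = 3.80e-04, limma); over the whole array 16.2% of genes were lower and 15.9% higher in ENHCs in that comparison. Within the cochlea the B9d2 difference of ENHCs from NECs was -1.06 ± 0.19 (adjusted p = 2.38e-04) and within the vestibular system -0.32 ± 0.19 (adjusted p = 0.277), where 12% and 12.2% of all genes were lower and 11.6% and 11.3% higher. The difference between these differences, vestibular minus cochlear, was 0.74 ± 0.27 (adjusted p = 0.116), and it passed the threshold without vestibular ENHC replicate 2 (0.93, adjusted p = 0.0352). Over the whole array 4% of genes passed this test upwards and 3.74% downwards.

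The B9d1 signal was 8.80, 8.65 and 8.78 in vestibular HCs and 8.62, 8.81 and 8.83 in cochlear HCs. In ENHCs it was 7.03, 7.28 and 7.83 (vestibular) and 7.51, 7.72 and 7.71 (cochlear), and in NECs 7.47, 7.47 and 7.48 (vestibular) and 7.20, 7.26 and 7.25 (cochlear). The HC arrays of both organs fell in one narrow range above all others, and ENHCs overlapped with NECs. HCs exceeded ENHCs by 1.23 ± 0.13 (adjusted p = 2.46e-07) and NECs by 1.39 ± 0.13 (adjusted p = 2.78e-08). Between vestibular and cochlear HCs B9d1 differed by -0.01, with a 95% interval of -0.39 to 0.38.

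Rpgrip1l, the scaffold that anchors the MKS module, lies on chromosome 8 (91217030 to 91313291). Its signal was 8.03, 7.21 and 7.56 in vestibular HCs and 7.35, 7.87 and 7.39 in cochlear HCs, against 5.52, 4.94 and 6.26 in vestibular ENHCs and 5.94, 6.12 and 6.77 in cochlear ENHCs. In NECs it was 6.11, 6.30 and 6.23 (vestibular) and 6.04, 6.65 and 6.66 (cochlear). The HC arrays stood above all others, while the vestibular ENHC arrays were the most spread of any group and their second replicate was not detected. HCs exceeded ENHCs by 1.64 ± 0.22 (adjusted p = 4.25e-06) and NECs by 1.24 ± 0.22 (adjusted p = 7.86e-05). Without vestibular ENHC replicate 3, the highest of its group, Rpgrip1l also passed as lower in ENHCs than in NECs (-0.58, adjusted p = 0.0380) and as lower in vestibular than in cochlear ENHCs (-1.05, adjusted p = 0.0331), and Cc2d2a as lower in ENHCs than in NECs (-0.35, adjusted p = 0.0472). With all arrays the first of these was -0.40 (adjusted p = 0.180), the second -0.70 (adjusted p = 0.182) and the third -0.28 (adjusted p = 0.110).

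Tmem67, the transmembrane protein also called meckelin, lies on chromosome 4 and was near the detection limit outside HCs. Its signal was 6.48, 6.07 and 6.12 in vestibular HCs and 6.08, 5.44 and 6.15 in cochlear HCs, and it was detected on 5 of these 6 arrays. It was 5.01, 5.13 and 4.65 in vestibular ENHCs and 5.08, 5.22 and 5.76 in cochlear ENHCs, where it was detected on 1 array, and on 1 of the 6 NEC arrays. The vestibular groups did not overlap, whereas cochlear HC replicate 2 lay below cochlear ENHC replicate 3. HCs exceeded ENHCs by 0.92 ± 0.17 (adjusted p = 1.84e-04) and NECs by 0.96 ± 0.17 (adjusted p = 8.62e-05). The vestibular HCs were at least 1.81-fold above the vestibular ENHC detection limit, with an adjusted p of 3.01e-04. The second Tmem67 probe was detected on the same number of HC arrays, 5, and on no other array, so the filter kept it through HC arrays only. It had a bound of at least 1.26-fold over ENHCs and correlated with the first by r = 0.53 over the 18 arrays.

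The tectonics, Tctn1 and Tctn2, are secreted or membrane-anchored members of the module and were close to the detection limit on most arrays. The Tctn1 signal was 4.84 to 5.63 in HCs, 4.63 to 5.25 in ENHCs and 4.77 to 5.13 in NECs. It was detected on 3 HC arrays and no other, so the filter kept this probe through HC arrays only. The ranges of the 3 cell types overlapped, and the difference of HCs from ENHCs was 0.30, with a 95% interval of -0.01 to 0.61 (adjusted p = 0.104). The brighter Tctn2 probe was at 5.06 to 6.35 in HCs, 4.84 to 5.89 in ENHCs and 4.71 to 5.58 in NECs, with 5, 1 and 1 arrays detected. HCs differed from ENHCs on it by 0.44 ± 0.20 (adjusted p = 0.0796) and exceeded NECs by 0.57 ± 0.20 (adjusted p = 0.0195). The NEC call was lost without vestibular HC replicate 2 (0.49, adjusted p = 0.0522), cochlear HC replicate 2 (0.48, adjusted p = 0.0554) or vestibular NEC replicate 1 (0.48, adjusted p = 0.0572). The Tctn2 difference from ENHCs passed the threshold without vestibular HC replicate 1 (0.52, adjusted p = 0.0482) and without vestibular ENHC replicate 2 (0.57, adjusted p = 0.0201). It also passed with median scaling (0.51, adjusted p = 0.0402, limma), and with the mean of the kept probes and the replicate block, both given at the end. For Tctn1 the difference passed without vestibular HC replicate 1 (0.42, adjusted p = 0.0186) or vestibular ENHC replicate 3 (0.39, adjusted p = 0.0402). Tctn1 also passed against NECs without vestibular HC replicate 1 (0.42, adjusted p = 0.0150).

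The 2 kept Tctn2 probes did not rank the arrays alike, with r = -0.10 over the 18 arrays. The brighter one was at 5.69, 6.35 and 6.04 in vestibular HCs and 5.06, 5.73 and 5.33 in cochlear HCs, whereas the other was at 5.90, 5.10 and 4.91 in vestibular HCs and 6.04, 5.66 and 6.11 in cochlear HCs. On the second probe 4 of 6 HC arrays and no ENHC array were detected, and HCs were at least 1.14-fold above the ENHC limit (adjusted p = 1.40e-03 over all 24352 kept probes). The difference between organs in HCs was 0.65 ± 0.28 on the brighter probe (adjusted p = 0.148) and -0.64 ± 0.29 on the other (adjusted p = 0.200), so neither passed the threshold in the main fit. The brighter probe passed with the replicate block given at the end. The annotation ties the probes to different transcript records of the gene.

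**Figure D2:**
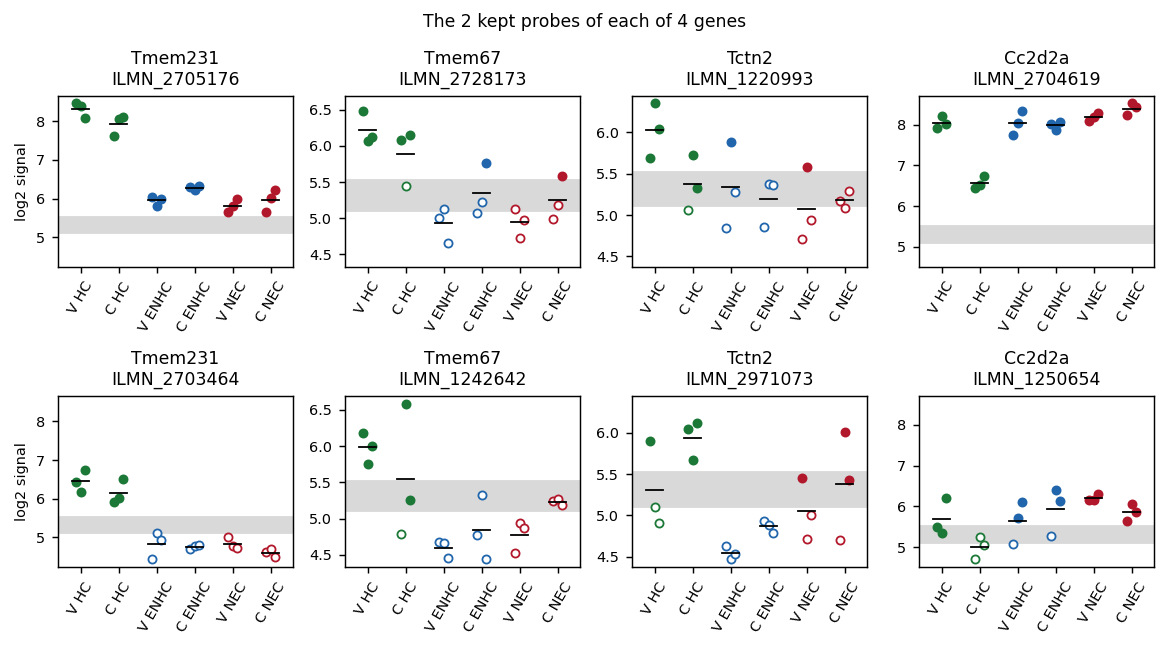
Log2 signal of both kept probes of Tmem231, Tmem67, Tctn2 and Cc2d2a, with the probe that stands for the gene in the upper row and the other in the lower row. Groups, points and the grey band are as in the plot of all 9 genes, and the vertical scale is shared within a gene. Both Tmem231 probes are high in HCs of both organs, the Tctn2 probes differ in which HC organ is higher, and both Cc2d2a probes have their lowest group mean in cochlear HCs.

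Cc2d2a, a C2-domain protein needed to build the transition zone, lies on chromosome 5 (43662374 to 43740975) and set cochlear HCs apart from all other groups. Its signal was 7.91, 8.21 and 8.01 in vestibular HCs and 6.45, 6.53 and 6.74 in cochlear HCs. It was 7.74, 8.05 and 8.33 in vestibular ENHCs and 8.01, 7.88 and 8.06 in cochlear ENHCs, and 8.09, 8.19 and 8.29 in vestibular NECs and 8.22, 8.52 and 8.43 in cochlear NECs. The 3 cochlear HC arrays were the lowest of the 18 and did not overlap with any other group, and vestibular HCs lay within the range of vestibular ENHCs. Cochlear HCs differed from cochlear ENHCs by -1.41 ± 0.18 (adjusted p = 4.02e-06) and from cochlear NECs by -1.82 ± 0.18 (adjusted p = 1.02e-07). Vestibular HCs and ENHCs differed by 0.00, with a 95% interval of -0.37 to 0.38. The second Cc2d2a probe was detected on all 3 vestibular HC arrays (5.49, 5.36 and 6.21) and on none of the 3 cochlear HC arrays (4.70, 5.25 and 5.05). The vestibular HC mean was 1.35-fold above the cochlear HC detection limit, a value that takes no account of the spread between arrays. The fitted difference did not pass the threshold (0.69 ± 0.30, adjusted p = 0.171). On this probe cochlear HCs differed from cochlear ENHCs by -0.93 ± 0.30 (adjusted p = 0.0228). The cochlear ENHC mean was 1.60-fold above the cochlear HC detection limit.

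Mks1, a B9-domain protein on chromosome 11 (87853182 to 87863803), was at 7.66, 7.63 and 6.66 in vestibular HCs and 6.53, 5.87 and 6.24 in cochlear HCs. Its signal was 6.70, 6.33 and 6.00 in vestibular ENHCs and 7.19, 6.28 and 6.55 in cochlear ENHCs, and 6.47, 5.83 and 6.20 in vestibular NECs and 6.18, 6.54 and 6.23 in cochlear NECs. Of the vestibular HC arrays, 2 were the highest of all 18 and the third lay within the ENHC range. Over both organs HCs and ENHCs differed by 0.26 ± 0.21 (adjusted p = 0.334), while vestibular HCs exceeded vestibular ENHCs by 0.98 ± 0.29 (adjusted p = 0.0143) and cochlear HCs differed from cochlear ENHCs by -0.46 ± 0.29 (adjusted p = 0.253). The vestibular call was lost without vestibular HC replicate 1 (0.81, adjusted p = 0.0709), vestibular HC replicate 2 (0.82, adjusted p = 0.0664) or vestibular ENHC replicate 3 (0.81, adjusted p = 0.0718), and with only the groups compared (adjusted p = 0.0592). The cochlear call of Cc2d2a, in contrast, held in all 27 alternatives.

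Within the vestibular system 6 members were higher in HCs than in ENHCs and none was lower, where 16.8% of all genes were higher and 17.7% lower. The groups did not overlap in 5 members, and in 41.6% of all genes. The 6 were Tmem231, Tmem67, B9d1, B9d2, Mks1 and Rpgrip1l, and the median of the 9 members was 1.29, beside -0.03 over all genes. Tctn2 differed by 0.69 ± 0.28 (adjusted p = 0.0641) and Tctn1 by 0.41 ± 0.21 (adjusted p = 0.148). Tctn2 passed without vestibular HC replicate 1 (0.86, adjusted p = 0.0417), without vestibular ENHC replicate 2 (0.97, adjusted p = 0.0146), with median scaling (0.83, adjusted p = 0.0256) and with the mean of its kept probes (0.73, adjusted p = 2.53e-03), and Tctn1 without vestibular HC replicate 1 (0.64, adjusted p = 0.0238). With median scaling in place of quantile normalization the split of all called genes moved from 48.8% higher to 60.5% higher in this comparison. Within the cochlea 4 members were higher (Tmem231, B9d1, B9d2 and Rpgrip1l) and Cc2d2a was lower, where 16.7% of all genes were higher and 19.3% lower, and the members' median was 0.54. Here the groups did not overlap in 6 members, and in 47% of all genes. Tmem67 differed by 0.54 ± 0.24 in the cochlea (adjusted p = 0.0927). It passed the threshold without cochlear HC replicate 2 (0.76, adjusted p = 0.0238) or cochlear ENHC replicate 3 (0.74, adjusted p = 0.0356). With the mean of its kept probes it also passed (0.62, adjusted p = 7.89e-03, limma). Tctn2 differed by 0.18 in the cochlea (adjusted p = 0.681) and passed with the mean of its kept probes (0.63, adjusted p = 6.99e-03). Its second probe was detected on all 3 cochlear HC arrays and on no cochlear ENHC array.

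**Figure D3:**
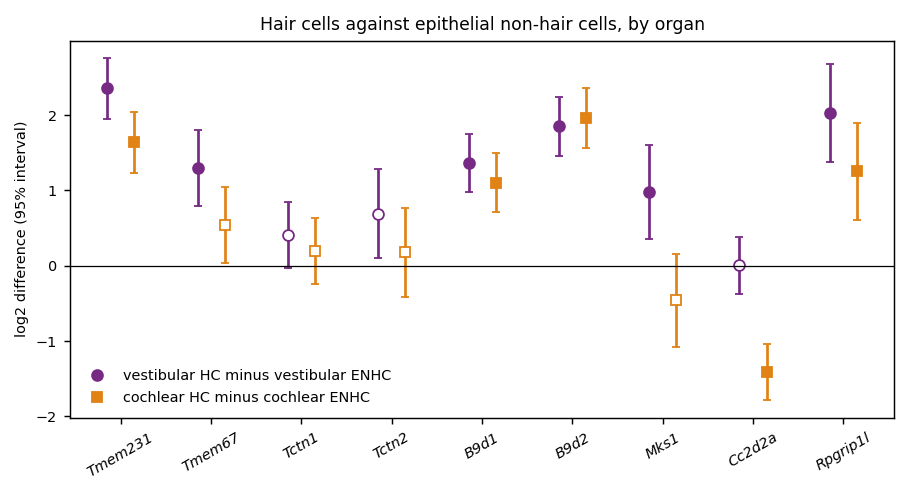
Log2 difference between HCs and ENHCs for each gene, for the vestibular system (circles) and the cochlea (squares), with 95% intervals from the limma fit over 3 arrays per group. Filled symbols passed an adjusted p of 0.05 over 12002 genes and open ones did not. The pairs of symbols lie apart for Mks1 (0.98 and -0.46) and Cc2d2a (0.00 and -1.41) and close together for B9d2 (1.85 and 1.96).

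The difference between these differences was tested directly. It passed the threshold for Cc2d2a (1.42 ± 0.25, adjusted p = 8.43e-04) and Mks1 (1.44 ± 0.42, adjusted p = 0.0310), while 6.14% of all genes passed in that direction and 4.47% in the other. For Tmem231 it was 0.71 ± 0.27 (adjusted p = 0.118), for Tmem67 0.76 ± 0.34 (adjusted p = 0.203), for Rpgrip1l 0.77 ± 0.43 (adjusted p = 0.346) and for B9d2 -0.11, with a 95% interval of -0.67 to 0.45. Leaving out any one of 7 arrays ended the Mks1 call: vestibular HC replicates 1 and 2, cochlear HC replicates 2 and 3, vestibular ENHC replicates 2 and 3 and cochlear ENHC replicate 1, with differences of 1.18 to 1.45 and adjusted p of 0.0575 to 0.0940. The call for Cc2d2a did not change when any of the 18 arrays was left out.

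Between vestibular and cochlear HCs, 2 members passed the threshold, both higher in vestibular HCs, where 7.94% of all genes were higher and 6.12% lower. Cc2d2a was higher by 1.47 ± 0.18 (2.77-fold, adjusted p = 9.54e-06, limma) and Mks1 by 1.11 ± 0.29 (2.15-fold, adjusted p = 0.0147). The Mks1 call was lost without vestibular HC replicate 1 (0.93, adjusted p = 0.0674), vestibular HC replicate 2 (0.95, adjusted p = 0.0669) or cochlear HC replicate 2 (0.93, adjusted p = 0.0783). No member differed between the organs in ENHCs, where 5.5% of all genes were higher and 5.3% lower in the vestibular system, or in NECs, where 3.3% were higher and 2.82% lower. In the same HC comparison 4 of 8 epithelial non-hair cell markers were higher in vestibular HCs and 1 was lower (Otoa, Oc90, Fgfr2 and Sox2 higher, Tecta lower). Of 8 mesenchyme markers 3 were higher (Col1a2, Col3a1 and Tbx18) and 2 lower (Lum and Pdgfra). The summed signal of the mesenchyme markers was 671.8 to 740.2 in vestibular HCs and 1011 to 1105 in cochlear HCs. However, 6 of these 8 were not detected on any cochlear HC array, and 3 were not detected on any vestibular HC array. Pdgfra averaged 9.58 in cochlear HCs and 7.99 in vestibular HCs. Of the 10 hair cell markers 2 were higher and 3 lower in vestibular HCs. Oc90, for example, averaged 9.82 in vestibular HCs and 5.04 in cochlear HCs, and 12.18 in vestibular ENHCs and 11.29 in cochlear ENHCs. Cc2d2a and Mks1 thus differed between the same arrays as these markers, and the part of other cells in their levels was not tested.

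Against NECs, 7 members were higher in HCs over both organs and Cc2d2a was lower (-0.98 ± 0.13, adjusted p = 2.08e-06), where 28.2% of all genes were higher and 29.1% lower. The HC arrays are the same as in the comparison with ENHCs. The 7 included Tctn2 and Mks1, neither of which passed against ENHCs, and the median of the 9 members was 0.96, beside 0.00 over all genes. Mks1 exceeded NECs by 0.52 ± 0.21 (adjusted p = 0.0389). This call was lost without vestibular HC replicates 1 or 2, cochlear HC replicates 1 or 3, vestibular NEC replicates 2 or 3, or cochlear NEC replicates 1 or 3, with differences of 0.44 to 0.53 and adjusted p of 0.0578 to 0.102. Within the vestibular system 7 members were higher and none lower (21.7% and 22.4% of all genes), and within the cochlea 5 were higher and Cc2d2a was lower (22.8% and 24.5%). The difference between organs passed for Cc2d2a (1.67 ± 0.25, adjusted p = 1.80e-04), where 6.61% of all genes passed in that direction and 4.95% in the other. For Mks1 it was 1.25 ± 0.42 (adjusted p = 0.0607), and it passed without vestibular HC replicate 3 (1.58, adjusted p = 0.0115), cochlear HC replicate 1 (1.41, adjusted p = 0.0475) or cochlear ENHC replicate 1 (1.25, adjusted p = 0.0477). Of the 7 neuron markers measured, 5 were detected on all 3 cochlear NEC arrays and none on any vestibular NEC array. Their summed signals were 697.7 to 1605 in cochlear NECs and 149.3 to 156 in vestibular NECs. The part of such cells in the differences between organs was not tested. Over all 6 groups, 7 of the 9 members differed by the moderated F test, as did 62.3% of all genes, and Tctn1 (adjusted p = 0.359) and Tctn2 (adjusted p = 0.0616) did not.

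Tmem67 exceeded NECs by 0.64 ± 0.24 in the cochlea (adjusted p = 0.0361). Without cochlear HC replicate 1 (0.54, adjusted p = 0.119), cochlear HC replicate 3 (0.51, adjusted p = 0.145), cochlear NEC replicate 1 (0.51, adjusted p = 0.141) or cochlear NEC replicate 2 (0.60, adjusted p = 0.0950) it did not pass. It also did not pass with no background correction (0.25, adjusted p = 0.0587), with the deposited normalized table (0.25, adjusted p = 0.0590), with median scaling (0.68, adjusted p = 0.0538) or with only the groups compared (adjusted p = 0.0584). Tctn2 exceeded NECs by 0.95 ± 0.28 in the vestibular system (adjusted p = 9.79e-03), and this call was lost without vestibular HC replicate 2 (0.78, adjusted p = 0.0504) or vestibular NEC replicate 1 (0.76, adjusted p = 0.0567). The calls of Tmem231, B9d1, B9d2 and Rpgrip1l against NECs held in each organ with any array left out.

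Over the 18 arrays the members fell into those that moved together and those that did not. Tmem231 correlated with B9d1 by r = 0.95, with Tmem67 by 0.86, with Rpgrip1l by 0.86 and with B9d2 by 0.85, whereas Cc2d2a correlated with Tmem231 by -0.56 and with B9d1 by -0.62. With the group means taken off, the correlation of Tmem231 was 0.14 with B9d1, 0.15 with Tmem67, 0.27 with B9d2 and 0.46 with Rpgrip1l. The negative correlations of Cc2d2a turned positive, at 0.37 with Tmem231 and 0.63 with B9d1. The values over the 18 arrays thus largely describe the differences between groups. By the same measure, over 18 arrays and among all genes tested, the gene most like Tmem231 was Spag6l (r = 0.98), most like B9d1 was Cetn2 (0.99), most like B9d2 was Abcd2 (0.96) and most like Rpgrip1l was Wdpcp (0.92). Cetn2 encodes a centrin of the centriole, and Wdpcp a protein of the ciliary base. The gene most like Tmem67 was Agpat4 (0.94), most like Cc2d2a Stard5 (0.93), most like Tctn2 Kmt5c (0.89), most like Mks1 Eed (0.88) and most like Tctn1 Tufm (0.80). These correlations share the group structure of the arrays and are descriptions only.

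Further transition zone genes were also listed with earlier results of these data known, so their counts are not independent of those results. Of 15 that were measured, 11 were higher in HCs than in ENHCs over both organs and none was lower, with a median of 1.03. Over the whole array 22.1% of genes were higher and 24.9% lower in this comparison. Among other MKS module and membrane proteins 7 of 8 were higher, 1 of them at an adjusted p of 0.0496 (limma). Tmem107, a membrane protein of the transition zone, exceeded ENHCs by 2.66 ± 0.26 (adjusted p = 6.40e-08), Ahi1, a coiled-coil and WD-repeat protein, by 1.92 ± 0.14 (adjusted p = 2.44e-09), and Tmem216 and Tmem138, a neighbouring pair of membrane protein genes, by 1.70 ± 0.18 and 1.21 ± 0.18. Tmem138 was detected on all 6 HC arrays but on 1 of 6 ENHC arrays, so its difference is against a signal mostly not above background, and it ranged from 0.49 to 1.31 in other settings. In the module of nephronophthisis proteins and scaffolds 4 of 7 were higher. Nphp4, a scaffold of that module, had a detected signal on the 6 HC arrays only, at least 2.41-fold above the ENHC limit (adjusted p = 2.78e-08, limma). The filter thus kept Nphp4 through HC arrays only, and its call as higher in HCs is not independent of that choice. Rpgr, a protein of the photoreceptor connecting cilium, Cep162 and Cspp1, both microtubule-associated, were higher by 1.04, 0.74 and 0.58. No gene of these lists was lower in HCs, so that Cc2d2a was the only one of the 24 transition zone genes measured to be lower in this comparison. The Cc2d2a difference was -1.41 within the cochlea and 0.00 within the vestibular system. In HCs none of the 15 differed between the organs, where 7.94% of all genes were higher and 6.12% lower in vestibular HCs. The HC to ENHC difference depended on the organ for 1 of them, Tmem138 (1.21 ± 0.35, adjusted p = 0.0309, limma). Of all genes 6.14% passed that test in the same direction and 4.47% in the other, so 1 of 15 is near the share over all genes.

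**Figure D4:**
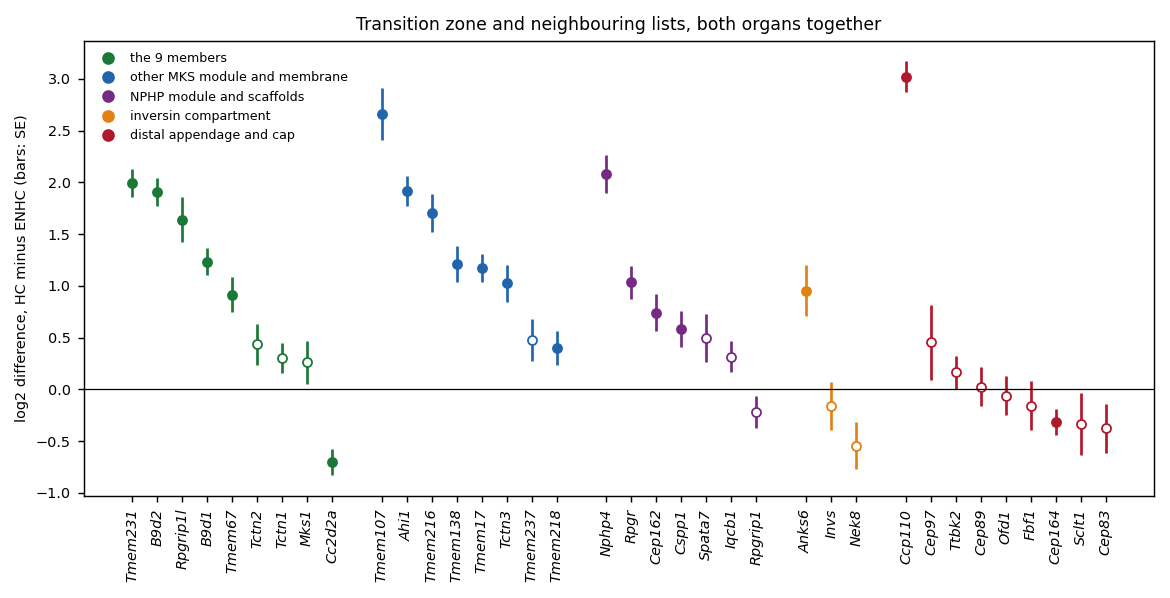
Log2 difference between HCs and ENHCs over both organs for the 9 members and for the genes of 4 other lists, sorted within each list, with bars of 1 SE. Filled points passed an adjusted p of 0.05 and open points did not. Of the other transition zone genes 11 of 15 lie above 0 and passed, and in the distal appendage list Ccp110 stands alone at 3.02.

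Genes of neighbouring compartments were counted in the same way between HCs and ENHCs over both organs, where 22.1% of all genes were higher and 24.9% lower. Of 3 measured proteins of the inversin compartment, just above the transition zone, Anks6 was higher in HCs (0.95 ± 0.25, adjusted p = 3.82e-03) and was detected on 5 of 6 HC arrays and 1 of 6 ENHC arrays. It differed by 0.32 in the vestibular system (adjusted p = 0.537) and by 1.59 in the cochlea (adjusted p = 1.40e-03), and vestibular HCs differed from cochlear HCs by -1.76 (adjusted p = 1.65e-03), while the HC to ENHC difference between organs did not pass (-1.27, adjusted p = 0.131). Of 9 proteins of the distal appendages and caps of the mother centriole, Ccp110, a cap protein that restrains cilium growth, was higher by 3.02 ± 0.15 (adjusted p = 5.45e-12), and Cep164 was lower (log2 difference -0.32 ± 0.13, adjusted p = 0.0445) but was detected on no HC array and on 2 ENHC arrays. Of 3 measured genes for ciliary membrane cargo, Smo, the Hedgehog signal transducer, was lower (log2 difference -1.07 ± 0.27, adjusted p = 3.36e-03). Of 3 measured RFX genes, Rfx3 (1.29 ± 0.29, adjusted p = 1.07e-03) and Rfx2 (0.69 ± 0.28, adjusted p = 0.0484) were higher in HCs. The Rfx2 call held in 11 of 27 alternatives (adjusted p up to 0.144) and the Cep164 call in 10 of 26 (adjusted p up to 0.12), so both were lost in most of them. Within the vestibular system Rfx3 (1.64, adjusted p = 3.90e-03) and Rfx2 (1.03, adjusted p = 0.0473) passed, and within the cochlea neither did (0.94, adjusted p = 0.0829, for Rfx3 and 0.34, adjusted p = 0.556, for Rfx2). Rfx2 was higher in vestibular than in cochlear HCs by 1.33 ± 0.39 (adjusted p = 0.0262) and was detected on 1 of 3 cochlear HC arrays, but its HC to ENHC difference between organs did not pass (0.70, adjusted p = 0.557).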

How the data were processed

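The authors measured sorted inner ear cells on an Illumina whole-genome mouse BeadChip and summarised the beads in Bead-Studio (version unstated). They deposited a table of probe signal intensity that was not normalized between arrays, with a detection p-value of each probe on each array, and a second table of signal intensity, quantile-normalized by the authors. The second matched quantile normalization of the first to within 0.289%. From the first table, signals were background-corrected with normexp (limma 3.58.1 in R 4.3.3, offset 16), quantile-normalized and taken to log2. Probes detected at p below 0.01 on at least 2 arrays were kept (24352). The platform annotation gave 1 symbol for 34885 of 45281 probes, several for 18 and none for 10378. A linear model over 6 groups was fitted to all kept probes, each gene took its brightest kept probe, and p-values were adjusted by Benjamini-Hochberg over 12002 genes. Other probes of the members were adjusted over all kept probes. This fit replaces the 2-way analysis of variance of the methods, which was run as an alternative for the test over all groups. The script was tested on simulated data.

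Where one side was detected on no array, a lower bound was computed against the mean of the arrays' detection limits, each the lowest signal among detected probes. The number of arrays, 3 per group, limits the precision. Other settings were no background correction, an offset of 50, median scaling, the deposited normalized table, other detection filters, the mean of a gene's probes, only the groups compared, the 2-way analysis of variance, a replicate block and each array left out. The members and lists were chosen with earlier results of these data known. All 9 members are named, and of each other list at most 4 genes, those with the largest difference between HCs and ENHCs past the threshold.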

Additional observations from a re-analysis of the deposited data

Results flagged for a closer look

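For 2 members the difference of hair cells from another cell type depended on the organ by a test of that dependence itself. The HC to ENHC difference of Cc2d2a, vestibular minus cochlear, was 1.42 ± 0.25 (adjusted p = 8.43e-04, limma), and its HC to NEC difference 1.67 ± 0.25 (adjusted p = 1.80e-04). The HC to ENHC difference of Mks1, vestibular minus cochlear, was 1.44 ± 0.42 (adjusted p = 0.0310).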

How the results depend on the processing

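Across 27 alternatives per result, 18 of them leaving out 1 array, none of the 3630 single-gene values of the members reversed as a called difference, 41 lost and 34 gained a call, and 111 of 135 pairs of a member and a comparison held their call throughout. Without background correction and with the deposited normalized table, 2 members were lower in ENHCs than in NECs, over both organs and in the cochlea, as Cc2d2a joined B9d2. With median scaling and with only the groups compared, 1 member remained higher in vestibular than in cochlear HCs and 1 in the HC to ENHC difference between organs, in each case Cc2d2a without Mks1. The count in the HC to ENHC difference was also 1 with no detection filter. In the HC to NEC difference between organs 2 members passed with the mean of the kept probes (Tmem67 joined) and with the replicate block (Mks1 joined). With the mean of the kept probes Tctn2 passed between HCs and ENHCs over both organs (0.68, adjusted p = 1.33e-04).

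The replicate block also brought the second Cc2d2a probe past the threshold between HCs and ENHCs (1 probe lower), and Tctn2 in the same comparison (0.44, adjusted p = 0.0116), within the vestibular system (0.69, adjusted p = 7.60e-03) and between vestibular and cochlear HCs (0.65, adjusted p = 0.0232). Nothing states that equal numbers share mice. Of 45 pairs of arrays with 1 number, 39 had deviations correlated over 0.1 (lowest -0.013), and 17 of 18 arrays correlated best with their own number.

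With 1 array left out, members higher ranged from 1 to 2 in both differences between organs of HCs to ENHCs and to NECs and between vestibular and cochlear HCs, and from 0 to 1 in that of ENHCs to NECs. Members lower ranged from 1 to 3 between ENHCs and NECs over both organs and from 0 to 1 within the vestibular system and between vestibular and cochlear ENHCs. Other probes ranged from 0 to 1 lower between HCs and ENHCs, and from 0 to 1 higher and 0 to 1 lower between vestibular and cochlear HCs. Median scaling moved the median of all genes by 0.112 between HCs and ENHCs. Relative to that median Tmem231 differed by 2.07 and Cc2d2a by -0.60. The 2-way analysis of variance of the methods called 6 of the 9 members over the groups, against 7 by the moderated F test. Slide as a block was not run, since the headers give no slides.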
